A study of Homo sapiens with 12 samples.

Results

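The mitochondrial ribosomal protein genes were followed in A2058, a human melanoma cell line, after 24 h of drug treatment. They were taken as the protein-coding genes whose symbol starts with MRPL or MRPS and a digit. Of 77 measured symbols of that form, 2 pseudogenes (MRPL42P5 and MRPL45P2) and 2 non-coding transcripts (MRPL20-AS1 and MRPL23-AS1) were left out, which gave 73 members of 14580 genes measured. Where a gene had several probe sets, which among the members held for MRPS2 alone, the brightest was used. Of the 73 members, 50 encode proteins of the large subunit of the mitochondrial ribosome and 23 proteins of the small subunit, with MRPS18A and MRPS30, whose proteins sit in the large subunit, counted there.

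The 12 arrays formed 4 groups of 3. DTE cells received dabrafenib (100 nM), an inhibitor of RAF kinases, trametinib (10 nM), an inhibitor of MEK, and entinostat (1 µM), an inhibitor of class I histone deacetylases. DT cells received dabrafenib and trametinib, E cells entinostat, and DMSO cells the solvent, and all 4 groups were the same line with no other treatment named in the labels. The titles call the arrays biological replicates while the series design calls them technical, so each p-value reflects no more than the scatter among these 12 arrays. One line was used, so the results describe that line.

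The mitochondrial ribosome makes the few proteins encoded by mitochondrial DNA, which are all subunits of the respiratory chain and ATP synthase. Its RNAs come from the mitochondrial genome, but each of its proteins is encoded in the nucleus, made in the cytosol and imported, so building the particle needs many scattered nuclear genes together. Many of its proteins have a counterpart in the bacterial ribosome, and others are found only in mitochondria. Promoters of such genes are known for sites of NRF1, ETS-family factors such as GABP, and YY1.

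The upstream sequences of 7 members on which the results below turn are shown first, because these genes are scattered over the genome and the promoter letters are what could be compared between them. MRPL3, MRPL52 and MRPL17 were lower with dabrafenib and trametinib, MRPL16, MRPL48 and MRPL27 were lower with entinostat, and MRPL54 was lower in DTE than in DT. As deposited, MRPL48 was also called lower with dabrafenib and trametinib. Each window runs 5′ to 3′ from 170 bases before the RefSeq transcription start to 30 bases after it, with coordinates of GRCh38.p14. Capitals mark letters of 4 searched motifs on either strand, which were the NRF1 palindrome, CCGGAAG (ETS family), AAGATGGCG (YY1) and GGGCGG (SP family).
MRPL3, chr3:131502942-131503141, minus strand: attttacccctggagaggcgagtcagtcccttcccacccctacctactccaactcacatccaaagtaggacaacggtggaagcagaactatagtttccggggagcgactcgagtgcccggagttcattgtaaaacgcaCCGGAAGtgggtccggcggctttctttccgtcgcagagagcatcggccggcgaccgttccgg
MRPL52, chr14:22829717-22829916, plus strand: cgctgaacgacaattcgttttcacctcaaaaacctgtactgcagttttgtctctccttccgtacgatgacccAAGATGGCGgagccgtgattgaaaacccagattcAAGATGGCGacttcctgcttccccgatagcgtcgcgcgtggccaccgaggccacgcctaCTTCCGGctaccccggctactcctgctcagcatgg
MRPL17, chr11:6683311-6683510, minus strand: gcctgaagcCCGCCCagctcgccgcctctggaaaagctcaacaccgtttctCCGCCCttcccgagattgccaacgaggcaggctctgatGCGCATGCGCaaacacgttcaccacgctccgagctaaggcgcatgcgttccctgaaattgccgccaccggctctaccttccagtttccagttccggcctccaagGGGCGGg
MRPL16, chr11:59810749-59810948, minus strand: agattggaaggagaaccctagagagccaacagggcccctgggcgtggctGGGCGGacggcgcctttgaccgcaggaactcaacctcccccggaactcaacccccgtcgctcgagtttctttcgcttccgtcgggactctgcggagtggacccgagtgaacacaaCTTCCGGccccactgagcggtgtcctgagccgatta
MRPL48, chr11:73787704-73787903, plus strand: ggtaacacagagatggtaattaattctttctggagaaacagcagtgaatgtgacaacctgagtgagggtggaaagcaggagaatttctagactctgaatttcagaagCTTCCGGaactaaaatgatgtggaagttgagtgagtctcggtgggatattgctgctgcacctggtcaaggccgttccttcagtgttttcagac
MRPL27, chr17:50373155-50373354, minus strand: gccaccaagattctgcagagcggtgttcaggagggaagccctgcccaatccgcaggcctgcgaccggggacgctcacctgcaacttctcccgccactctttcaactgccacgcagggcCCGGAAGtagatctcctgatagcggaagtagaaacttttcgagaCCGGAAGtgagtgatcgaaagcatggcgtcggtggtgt
MRPL54, chr19:3762512-3762711, plus strand: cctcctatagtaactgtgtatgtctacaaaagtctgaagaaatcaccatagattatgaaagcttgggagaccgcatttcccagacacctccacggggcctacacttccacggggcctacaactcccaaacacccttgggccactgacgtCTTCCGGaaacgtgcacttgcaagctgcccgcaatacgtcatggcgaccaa

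The ETS letters were present in 6 of these 7 windows, in MRPL3, MRPL52, MRPL16, MRPL48, MRPL27 and MRPL54, and were not limited to genes called in a single comparison. MRPL17 held the NRF1 letters and 3 copies of the SP letters, and MRPL52 held 2 copies of the YY1 letters. Over the full RefSeq windows, from 250 bases before to 50 after the start, 65 members matched the table. Of these, 43.1% held the ETS letters, against 10.7% of all 27305 promoters. The YY1 letters were in 18.5% of members and 1.85% of all promoters, the NRF1 letters in 12.3% and 6.28%, and the SP letters in 61.5% and 44.6%. CACGTG, the E-box, was in 7.69% of members and 7.43% of all promoters. The 27305 promoters were not limited to measured or protein-coding genes, whereas the members are measured, protein-coding and mostly bright. Shares among genes of like kind and level were not counted. These are matches of letters and no measure of binding.

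The members were also split by these letters. Median log2 changes against DMSO after quantile normalization are given in the order DT, E and DTE. They were -0.08, -0.20 and -0.29 in the 28 members with the ETS letters and -0.03, -0.17 and -0.24 in the 37 without. With the YY1 letters (12 members) they were -0.12, -0.26 and -0.30, and without (53) -0.03, -0.17 and -0.23. With the NRF1 letters (8 members) they were -0.20, -0.10 and -0.26, and without (57) -0.04, -0.18 and -0.26. The members with these letters thus had the lower median in DT but not in E, and in DTE the medians were alike. With the SP letters (40 members) they were -0.03, -0.16 and -0.24, and without (25) -0.13, -0.22 and -0.28. With the E-box (5 members) they were 0.06, -0.30 and -0.29, and without (60) -0.08, -0.18 and -0.25. No test was made of these splits.

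Several facts of the series bear on the values that follow. The labels' melanoma identity was met by melanocytic markers, with 7 of 8 measured and a summed linear intensity of 1780 to 1910 in DTE, 2760 to 3210 in DT, 1490 to 1650 in E and 1660 to 1720 in DMSO. The epithelial markers (4 of 5 measured) summed to at most 126, and the 1 measured blood marker stood at 4.5 to 6.15. The fibroblast markers (3 of 5 measured) summed to 439 to 600 in DTE, 185 to 246 in DT, 301 to 359 in E and 166 to 193 in DMSO, and their part in the results was not tested. This sum was nearly all LUM, at a mean of 8.83 log2 units in DTE, 7.49 in DT, 8.13 in E and 7.20 in DMSO, whereas DCN averaged at most 2.61 in any group and THY1 averaged 5.12, 4.59, 5.72 and 5.02 in DTE, DT, E and DMSO. DUSP6, a target of ERK signalling, had 4.25, 3.33 and 4.07 log2 intensity units in DTE, 4.05, 4.24 and 4.45 in DT, 9.19, 9.12 and 9.41 in E and 8.64, 8.96 and 8.56 in DMSO, so the arrays given the kinase inhibitors lay apart from the others. In a bulk measurement, fewer cells and less RNA per cell cannot be told apart.

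The array medians over all genes differed between groups, at 4.66 ± 0.0448 log2 units in DTE, 4.48 ± 0.106 in DT, 4.88 ± 0.0168 in E and 4.68 ± 0.111 in DMSO (mean ± SD, n = 3). Bright genes carried more of the shift than dim ones in DT and DTE, but not in E. Quantile normalization moved the bright MRPS15 from 9.05 to 8.89 in E and from 9.34 to 9.17 in DMSO. The dimmer MRPL22 moved from 5.06 to 4.86 in E and from 5.39 to 5.34 in DMSO. Relative to DMSO, median centring thus lowers bright genes in E by more than quantile normalization does. The members were bright, with a median level of 6.86 over the 12 arrays against 4.69 for all genes. Members are therefore given on the deposited scale, after quantile normalization, which gives all arrays the same distribution, and after centring each array on its median. A gene was called changed where limma gave an adjusted p under 0.05 (Benjamini-Hochberg over all 14580 genes). Calls shared by all 3 scales are given separately, a criterion chosen after seeing the data. The lowest mean level of a member was that of MRPL23 (3.71) and the highest that of MRPS21 (10.60), and 0 members lay below the lower quartile of genes in any group.

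As deposited, the members as a set were lower in all 3 drug groups than in DMSO, but after quantile normalization DT overlapped with DMSO. The array medians over the 73 members were 6.55, 6.63 and 6.98 log2 units in DTE as deposited, 6.61, 6.81 and 6.54 in DT, 6.94, 6.97 and 6.98 in E, and 6.99, 7.14 and 7.09 in DMSO. Each array with a drug lay below all DMSO arrays, and DTE replicate 3 stood well above the other DTE arrays, at the level of the E arrays. Above each array's own median over all genes, the members stood at 1.95, 1.95 and 2.30 in DTE, 2.17, 2.21 and 2.14 in DT, 2.08, 2.07 and 2.10 in E, and 2.31, 2.34 and 2.52 in DMSO. On this relative measure the E arrays lay below the DT arrays, and all arrays of both groups lay below those of DMSO. After quantile normalization the array medians over the members were 6.78, 6.76 and 6.98 in DTE, 6.92, 6.90 and 6.84 in DT, 6.77, 6.75 and 6.77 in E, and 6.88, 6.86 and 7.03 in DMSO. On that scale the E arrays still lay below all DMSO arrays, whereas the DT arrays and DTE replicate 3 fell within their range or close to it.

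**Figure D1:**
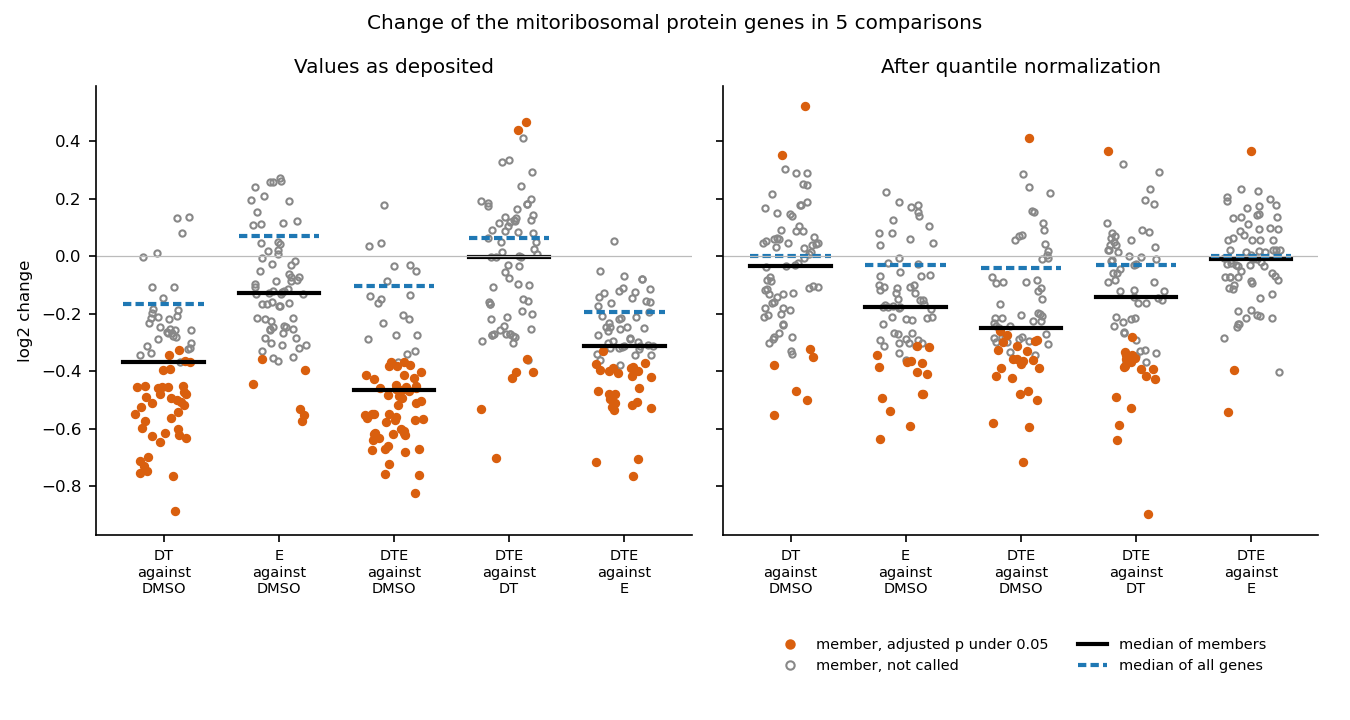
Log2 change of each of the 73 mitoribosomal protein genes (points) in 5 comparisons, as deposited (left) and after quantile normalization (right); filled points passed an adjusted p under 0.05 by limma, black bars are medians of the members and dashed blue bars medians of all 14580 genes. The members' median in DT against DMSO is -0.37 on the left and -0.03 on the right, whereas that in DTE against DMSO is -0.47 on the left and -0.25 on the right.

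The comparison of DT with DMSO addresses what RAF and MEK inhibition did to these genes. As deposited, 40 of 73 members fell (54.8%) and 0 rose, where 24.1% of all genes were called lower and 3.23% higher. The median log2 change was -0.37 for the members and -0.17 for all genes, and 69 of 73 members were below 0. After quantile normalization, 6 members fell (8.22%) and 2 rose, beside 7.86% lower and 8.55% higher among all genes, and the medians were -0.03 and 0.00. After median centring 16 fell, where 12% of all genes did. Among the 7290 brighter genes, 45 of 71 members (63.4%) were called lower as deposited, against 50.1% of those genes, and 8 (11.3%) against 16.9% after quantile normalization. After quantile normalization, the share of members called lower was thus close to that of all genes and below that of the brighter ones. Without DT replicate 1 the deposited count was 28, and without DMSO replicate 1 the quantile-normalized count was 3.

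On all 3 scales 6 members fell in DT, all of them large subunit genes: MRPL1, MRPL3, MRPL17, MRPL50, MRPL52 and MRPS30 (8.22%, background 7.43%). MRPL3, a core protein next to the peptidyl transferase centre, had 7.68, 7.51 and 7.98 log2 units in DTE as deposited, 7.51, 7.75 and 7.53 in DT, 8.16, 8.37 and 8.24 in E, and 8.42, 8.57 and 8.47 in DMSO. The 6 arrays with the kinase inhibitors lay below the 6 without, with no overlap. Its log2 change in DT was -0.89 (SE 0.13, limma adjusted p = 7.28e-05), a 1.85-fold fall and the largest of any member in this comparison, and -0.50 after quantile normalization (adjusted p = 0.00324).

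MRPL52, a protein found only in mitochondrial ribosomes, had 4.34, 4.33 and 4.24 log2 units in DTE, 4.29, 4.46 and 4.15 in DT, 4.97, 5.0 and 5.24 in E, and 4.88, 5.25 and 5.06 in DMSO. Its DTE and DT arrays lay together and so did its E and DMSO arrays, with a gap between the sets. The log2 change was -0.77 in DT against DMSO (SE 0.13, limma adjusted p = 0.000275) and -0.76 in DTE against E (SE 0.13, limma adjusted p = 0.000429). After quantile normalization it was -0.55 and -0.54, and both remained called.

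MRPL17, which has a bacterial counterpart at the exit of the nascent chain tunnel, showed the same pattern, with 6.46, 6.44 and 6.55 log2 units in DTE, 6.19, 6.41 and 6.31 in DT, 7.09, 7.13 and 7.34 in E, and 6.98, 7.07 and 7.04 in DMSO. Again the arrays with and without the kinase inhibitors did not overlap. Its log2 change was -0.73 in DT against DMSO (SE 0.11, limma adjusted p = 0.000126) and -0.70 in DTE against E (SE 0.11, limma adjusted p = 0.000284). After quantile normalization these were -0.35 (adjusted p = 0.0218) and -0.40 (adjusted p = 0.0134), and with 1 array left out at a time they ran from -0.39 to -0.30 and from -0.44 to -0.32. The quantile-normalized call in DT was lost without DMSO replicate 1, DMSO replicate 3, DT replicate 1 or DT replicate 2, and that in DTE against E without E replicate 3.

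The other 3 members called on all scales were MRPL1, a protein of the stalk where spent tRNAs leave, MRPS30 and MRPL50. MRPS30 had 7.95, 8.01 and 8.29 log2 units in DTE, 7.89, 8.09 and 7.73 in DT, 8.43, 8.77 and 8.60 in E, and 8.62, 8.78 and 8.56 in DMSO, and its change in DT was -0.75 (limma adjusted p = 0.000495, or -0.38 with adjusted p = 0.0209 after quantile normalization). MRPL1 changed by -0.76 in DT and MRPL50 by -0.70. With 1 array left out at a time, the calls of MRPL1, MRPL3 and MRPL52 held in all 12 such fits on both the deposited and the quantile-normalized scale. Those of MRPL17, MRPS30 and MRPL50 were lost on the quantile-normalized scale without single arrays, among them DMSO replicate 1.

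**Figure D2:**
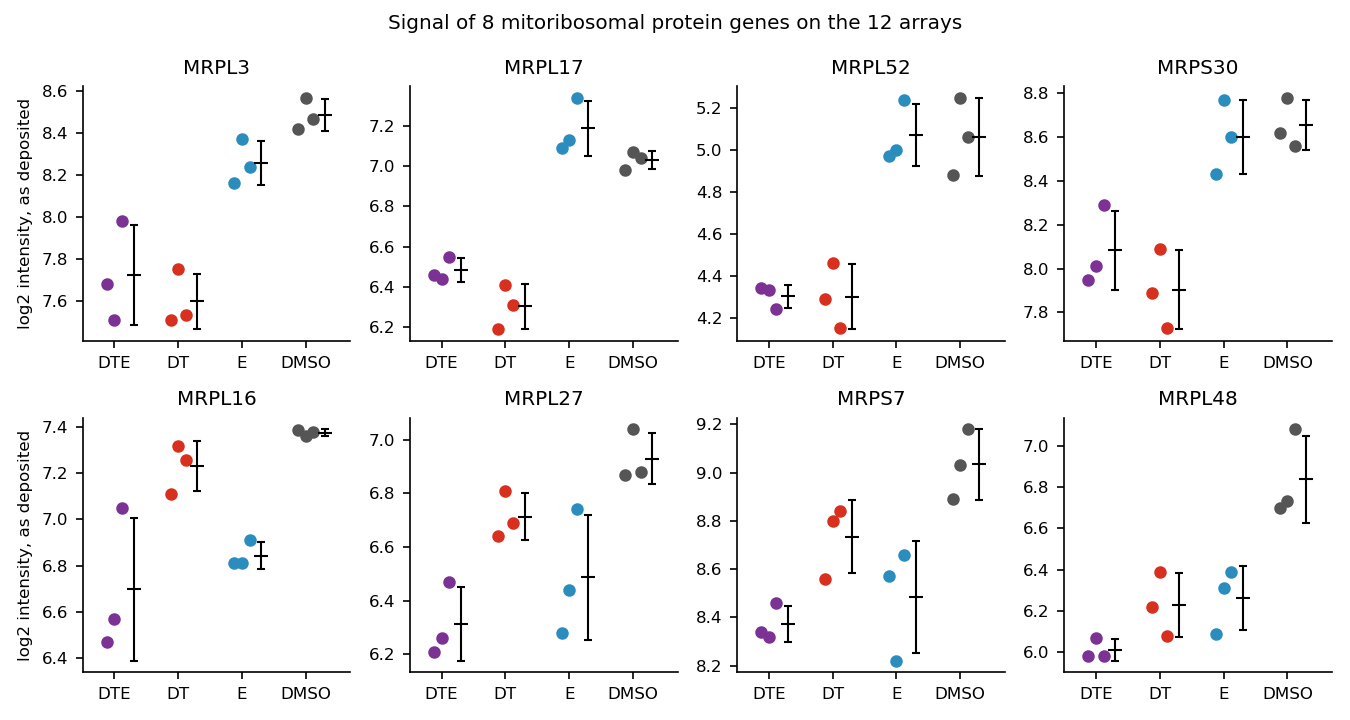
Log2 intensity as deposited of 8 members on each of the 12 arrays, in DTE, DT, E and DMSO; points are arrays, bars beside them the mean ± SD (n = 3), and the vertical axes do not start at 0 and differ between panels. The upper row shows genes lower in both groups given dabrafenib and trametinib (MRPL3, MRPL17, MRPL52 and MRPS30), and the lower row genes lower in both groups given entinostat (MRPL16, MRPL27, MRPS7 and MRPL48). In each gene of the lower row the DT arrays also lay below the DMSO arrays, and MRPL48 was also called lower in DT as deposited.

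A pair of members were called higher in DT after quantile normalization alone. MRPL44, a large subunit protein related to RNase III, had 7.87, 7.69 and 8.15 log2 units in DTE as deposited, 8.17, 8.28 and 8.08 in DT, 7.91, 8.08 and 8.11 in E, and 7.95, 8.11 and 8.06 in DMSO. Its groups overlapped and its deposited change of 0.14 in DT was not called (limma adjusted p = 0.483), whereas the quantile-normalized change was 0.52 (adjusted p = 0.00229). MRPS14, a small subunit protein with a bacterial counterpart, had a deposited change of -0.00 and a quantile-normalized change of 0.35 in DT (limma adjusted p = 0.00989), 0.41 in DTE against DMSO and 0.37 in DTE against E. Whether either was called therefore depended on the scale, and for MRPS14 in DT so did the sign.

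The comparison of E with DMSO addresses histone deacetylase inhibition alone. As deposited, 6 of 73 members fell (8.22%) and 0 rose, where 3.54% of all genes were called lower and 12.5% higher. The median log2 change was -0.13 for the members and 0.07 for all genes. After quantile normalization, 15 members fell (20.5%) and 0 rose, where 8.45% of all genes were called lower and 9.67% higher, with medians of -0.18 and -0.03. After median centring 32 fell, where 16.3% of all genes did. Among the 7290 brighter genes the quantile-normalized shares called lower were 32.4% of members and 19.3% of those genes. The members' share called lower thus lay above that of all genes on each of these scales. The counts leaned on single arrays. As deposited the count was 2 without E replicate 2 and 3 without E replicate 1, DMSO replicate 1 or DMSO replicate 3. After quantile normalization it was 7 without E replicate 1, 9 without E replicate 2, 8 without DMSO replicate 1 and 7 without DMSO replicate 3.

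On all 3 scales 6 members fell in E, namely MRPL9, MRPL15, MRPL16, MRPL27, MRPL48 and MRPS7 (8.22%, background 3.53%), and 5 of these have bacterial counterparts. MRPL16, a protein near the site where tRNAs enter, had 6.47, 6.57 and 7.05 log2 units in DTE as deposited, 7.11, 7.32 and 7.26 in DT, 6.81, 6.81 and 6.91 in E, and 7.39, 7.36 and 7.38 in DMSO. The E arrays lay below the DMSO arrays and the DTE arrays below the DT arrays, with DTE replicate 3 nearest to DT. The DT arrays lay between those of E and DMSO. Its log2 change in E was -0.53 (SE 0.14, limma adjusted p = 0.0118) as deposited and -0.59 (adjusted p = 0.00213) after quantile normalization.

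MRPL48, a mitochondria-specific protein of the central protuberance, had 5.98, 6.07 and 5.98 log2 units in DTE, 6.22, 6.39 and 6.08 in DT, 6.09, 6.31 and 6.39 in E, and 6.70, 6.73 and 7.08 in DMSO. All 9 arrays with a drug lay below the 3 DMSO arrays, and the E and DT arrays overlapped. Its change was -0.57 in E (SE 0.13, limma adjusted p = 0.00547) and -0.60 in DT (SE 0.13, limma adjusted p = 0.00243). After quantile normalization the change in E was -0.64 (adjusted p = 0.00334) and that in DT -0.24 (adjusted p = 0.27).

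MRPL27, whose bacterial counterpart reaches toward the peptidyl transferase centre, had 6.21, 6.26 and 6.47 log2 units in DTE, 6.64, 6.81 and 6.69 in DT, 6.28, 6.44 and 6.74 in E, and 6.87, 7.04 and 6.88 in DMSO. The E arrays lay below DMSO and the DTE arrays below DT. The DT arrays lay below DMSO too, and E replicate 3 lay above DT replicates 1 and 3. Its change in E was -0.44 (SE 0.13, limma adjusted p = 0.0268), and this deposited call was lost without any 1 of 5 arrays, all 3 of DMSO and E replicates 1 and 2 (range of the change -0.57 to -0.34), whereas the quantile-normalized change of -0.50 (adjusted p = 0.00446) was called in all 12 such fits.

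MRPS7, a protein of the head of the small subunit with a bacterial counterpart, had 8.34, 8.32 and 8.46 log2 units in DTE, 8.56, 8.80 and 8.84 in DT, 8.57, 8.22 and 8.66 in E, and 8.89, 9.03 and 9.18 in DMSO. The E, DTE and DT arrays all lay below the DMSO arrays, the E and DT arrays overlapped, and E replicate 2 was the lowest of the 12. Its change in E was -0.55 (SE 0.14, limma adjusted p = 0.00815) and -0.54 after quantile normalization (adjusted p = 0.00673). Without E replicate 2 the deposited change was -0.42 and missed the threshold. Of the 6, MRPL16 and MRPL48 kept their calls in all 12 fits with 1 array left out on both scales. The deposited calls of MRPL9 and MRPL15 held in 7 and 4 of these fits.

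Combined treatment, DTE against DMSO, gave the most falls. As deposited, 53 of 73 members fell (72.6%) and 0 rose, where 22.5% of all genes were called lower and 9.64% higher, and the medians were -0.47 and -0.11. After quantile normalization 23 fell (31.5%) and 1 rose, MRPS14, where 14.2% of all genes were called lower and 14.2% higher, with medians of -0.25 and -0.04. Among the 7290 brighter genes the quantile-normalized shares called lower were 45.1% of members and 27.1% of those genes. As deposited, 44.6% of the brighter genes, fitted alone, were called lower, a share not matched to the members' 72.6% from the fit of all genes. On all 3 scales 23 members were called lower (31.5%, background 13.6%), 17 of the large and 6 of the small subunit. The quantile-normalized count of falls was 7 without DMSO replicate 3, 14 without DMSO replicate 1, and 15 without DTE replicate 2 or DTE replicate 3.

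The 4 largest falls as deposited were those of MRPL48 (-0.82, or 1.77-fold), MRPL3 (-0.76), MRPL52 (-0.76) and MRPL38 (-0.72), with limma adjusted p of 0.000118, 0.000232, 0.000212 and 0.000101. MRPL38, like MRPL48 a mitochondria-specific protein of the central protuberance, had 5.90, 5.74 and 5.71 log2 units in DTE, 5.95, 6.09 and 6.11 in DT, 6.28, 6.34 and 6.26 in E, and 6.50, 6.64 and 6.38 in DMSO. The 4 groups did not overlap, with DTE lowest, then DT, then E, and DMSO highest. After quantile normalization DMSO stayed highest and DTE had the lowest mean, but the mean in E (6.09) was below that in DT (6.27). After quantile normalization the changes of these 4 genes were -0.58, -0.47, -0.72 and -0.50, all still called. They were among 7 members, with MRPL9, MRPL16 and MRPL36, that stayed called in every fit with 1 array left out on both scales.

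**Figure D3:**
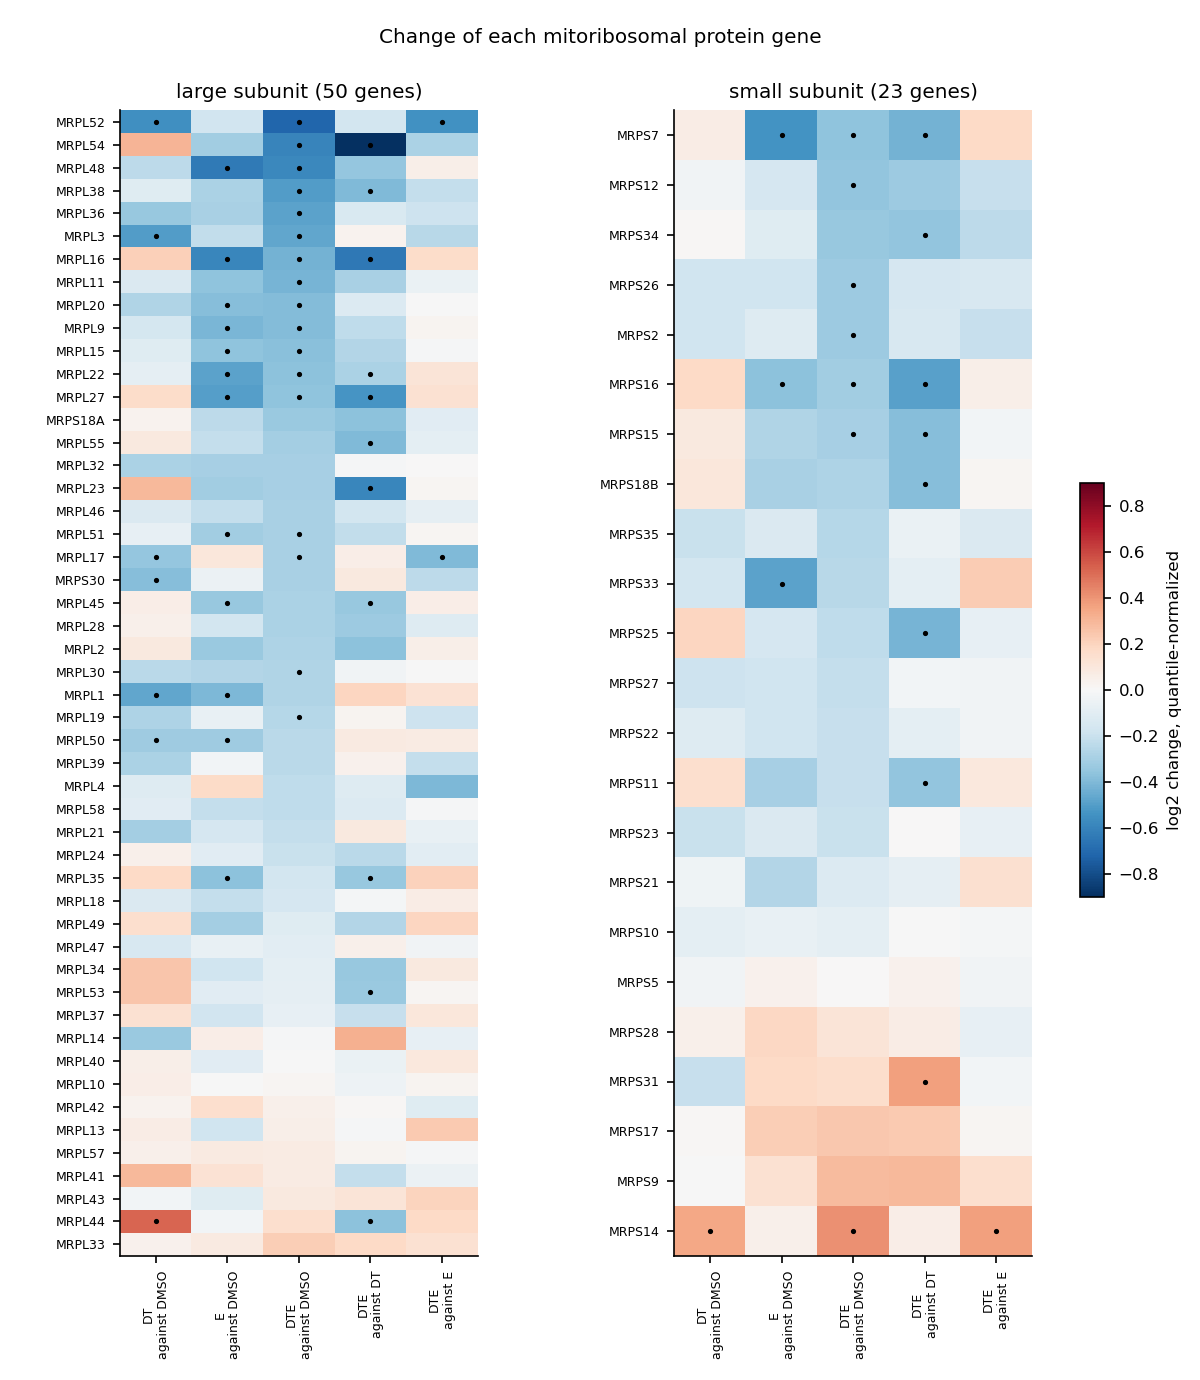
Quantile-normalized log2 change of each member in the 5 comparisons (columns), for the 50 large subunit genes (left) and the 23 small subunit genes (right), ordered by the change in DTE against DMSO; blue is lower, red is higher, and dots mark an adjusted p under 0.05 by limma. The members called lower in DTE against DMSO are at the top of both panels, and MRPS14 at the bottom right is the member called higher there.

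What entinostat added to the kinase inhibitors was read from DTE against DT. As deposited 6 members fell (8.22%) and 2 rose (2.74%), where 5.09% of all genes were called lower and 13.8% higher. After quantile normalization 18 fell (24.7%) and 1 rose, where 12% of all genes were called lower and 12.2% higher, with medians of -0.14 for the members and -0.03 for all genes. Among the 7290 brighter genes, fitted alone, 24.2% were called lower on that scale. The members' 24.7% came from the fit of all genes, so these shares are not matched and are not compared. As deposited the falls numbered 1 without DTE replicate 2, 2 without DTE replicate 1 or DT replicate 3, and 3 without DT replicate 2, and the rises 0 without DT replicate 1 and 1 without DTE replicate 3 or DT replicate 3. After quantile normalization the falls numbered 10 without DTE replicate 2 or DT replicate 1, 9 without DTE replicate 3 and 8 without DT replicate 3, and the rises 0 without DT replicate 1. On all 3 scales 6 members fell, MRPL16, MRPL23, MRPL27, MRPL54, MRPS15 and MRPS16 (8.22%, background 5.09%).

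MRPL54, a mitochondria-specific large subunit protein, had 4.04, 4.31 and 4.63 log2 units in DTE, 5.04, 4.90 and 5.16 in DT, 4.76, 4.85 and 4.86 in E, and 4.88, 4.85 and 5.11 in DMSO. The 3 DTE arrays lay below all 9 others, while DMSO overlapped with both DT and E, and DTE replicate 1 was the lowest. Its change in DTE against DT was -0.70 (SE 0.14, limma adjusted p = 0.00144), a 1.63-fold fall, and -0.90 after quantile normalization (adjusted p = 0.000722), called in all 12 fits with 1 array left out on both scales. Neither DT (0.08, limma adjusted p = 0.731) nor E alone (-0.12, adjusted p = 0.639) was called against DMSO, but the departure from additivity missed the threshold (-0.58, SE 0.20, limma adjusted p = 0.219).

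MRPL16 and MRPL27 also fell in DTE against DT, by 0.53 (limma adjusted p = 0.00982) and 0.40 (limma adjusted p = 0.0386) as deposited. After quantile normalization their log2 changes were -0.64 and -0.53. The deposited call of MRPL16 was lost without DTE replicate 1 (-0.42) or DTE replicate 2 (-0.47), while DTE replicate 3 was the array nearest to DT. That of MRPL27 was lost without DTE replicate 1, DTE replicate 2 or any DT array (-0.48 to -0.35), and both quantile-normalized calls held in all 12 fits. MRPS31, a mitochondria-specific small subunit protein, had 5.91, 5.96 and 6.17 log2 units in DTE, 5.42, 5.76 and 5.46 in DT, 6.36, 6.47 and 6.18 in E, and 5.86, 6.25 and 6.08 in DMSO. It was lower in DT than elsewhere, and the rise in DTE against DT was 0.47 as deposited (limma adjusted p = 0.0221) and 0.37 after quantile normalization (adjusted p = 0.0176), while median centring left it uncalled. On both scales the call was lost without DTE replicate 3, DT replicate 1 or DT replicate 3. The other deposited rise, that of MRPL14 (0.44, limma adjusted p = 0.0302), was called on that scale alone, and not without DTE replicate 1, DTE replicate 2 or DT replicate 1. The deposited falls of MRPL23, MRPS15 and MRPS16 held in 8, 7 and 5 of 12 fits with 1 array left out, and their quantile-normalized falls in all 12.

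Dabrafenib and trametinib on top of entinostat, DTE against E, lowered 26 members as deposited (35.6%), with 0 higher, where 22.4% of all genes were called lower and 2.08% higher. Among the 7290 brighter genes, fitted alone, 43.2% were called lower as deposited. The members' 35.6% came from the fit of all genes and is not matched to that share. After quantile normalization 2 were lower (2.74%) and 1 higher, MRPS14, where 5.84% of all genes were called lower and 6.99% higher. The 2 lower were MRPL17 and MRPL52, which were also the members called on all 3 scales (2.74%, background 5.53%). MRPL4 and MRPL3 were with them the 4 largest falls as deposited, at -0.72 and -0.54 (limma adjusted p = 0.00105 and 0.00702), and neither was called after quantile normalization. The deposited count was 15 without DTE replicate 1 or DTE replicate 2 and 12 without E replicate 3.

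DT against DMSO and DTE against E share no array, and neither do E against DMSO and DTE against DT, so each pair shows the same drugs on separate arrays. Across the 73 members, Pearson's r of the quantile-normalized changes was 0.479 for the first pair and 0.605 for the second, against 0.674 and 0.693 across all 14580 genes. Genes are not independent replicates, and these values are a description. For the entinostat pair, 7 members were called lower in both after quantile normalization, namely MRPL16, MRPL22, MRPL27, MRPL35, MRPL45, MRPS7 and MRPS16, which were 46.7% of the 15 called in E and 38.9% of the 18 called in DTE against DT. Among all genes these shares were 56.6% and 39.8%. After median centring 18 members were lower in both, 56.2% of 32 and 69.2% of 26, beside 48.7% and 51.4% among all genes. As deposited they were MRPL16 and MRPL27, 33.3% of each 6, beside 51.6% and 35.8% among all genes. For the kinase inhibitor pair they were MRPL17 and MRPL52, 33.3% of 6 and 100% of 2, beside 44.2% and 59.6% among all genes. The same pair of genes was found after median centring, 12.5% of 16 and 66.7% of 3, beside 39.0% and 67.4%. As deposited 18 members were lower in both, 45.0% of 40 and 69.2% of 26, beside 55.6% and 59.7% among all genes. The comparisons against DMSO share the DMSO arrays and were not set against each other in this way.

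**Figure D4:**
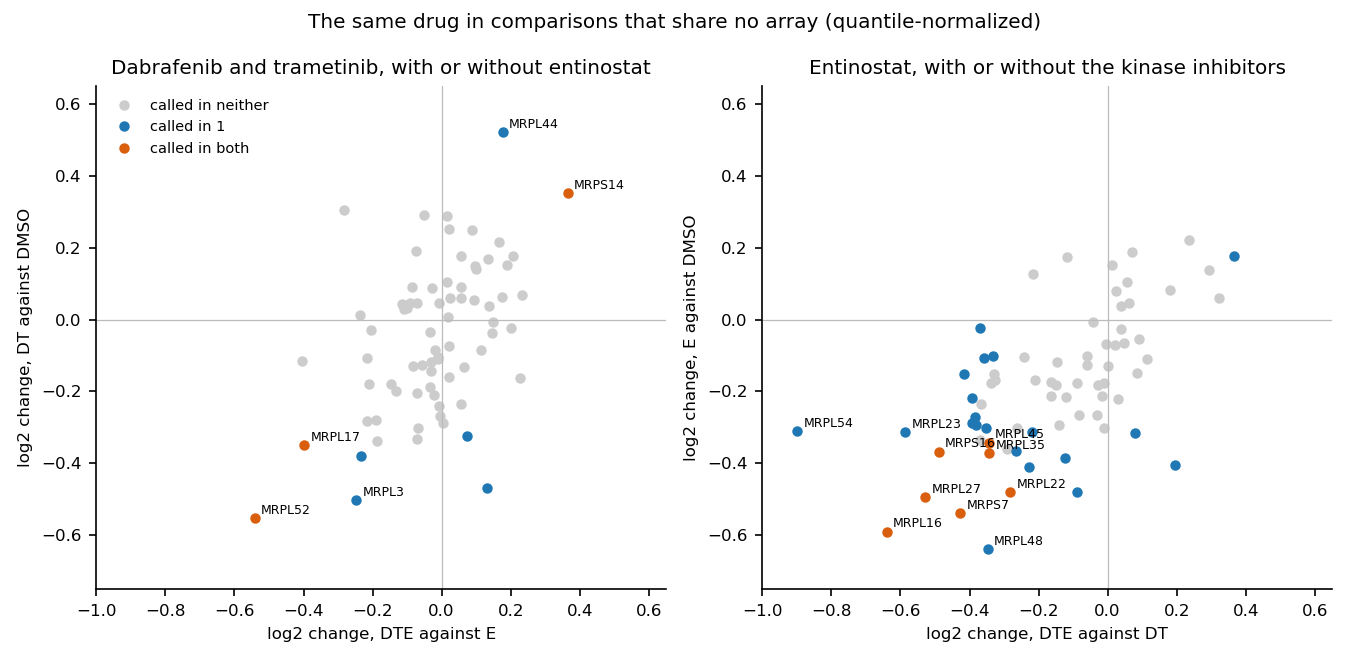
Quantile-normalized log2 change of the 73 members for the same drug in comparisons that share no array, with dabrafenib and trametinib (left) in DTE against E (horizontal) and DT against DMSO (vertical), and entinostat (right) in DTE against DT (horizontal) and E against DMSO (vertical). MRPL17, MRPL52 and MRPS14 were called in both comparisons on the left, and the 7 members called in both on the right all lie in the lower left corner.

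A departure from additivity, where DTE differs from what the DT and E changes add up to, was not called for any member. Limma called 0 of 73 higher and 0 lower as deposited and after quantile normalization, with 4 at an unadjusted p under 0.05 on either scale. Among all genes it called 0.562% higher and 0.473% lower as deposited, and 1.19% and 0.96% after quantile normalization. The widest departures were those of MRPL1 (0.61, SE 0.18, limma adjusted p = 0.136) and MRPL54 (-0.58). After quantile normalization with the dimmer genes left out, 1 member was called higher, and it was MRPL1, where 3.44% of the 7290 brighter genes were called higher. MRPL52, MRPL17, MRPL16 and MRPL27 had departures of 0.00, 0.03, -0.00 and 0.04 as deposited, with SE of 0.16 to 0.19.

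The members were also counted by subunit and by whether a bacterial counterpart was listed for them. In E against DMSO after quantile normalization, 12 of 50 large subunit genes (24.0%) and 3 of 23 small subunit genes (13.0%) were called lower, with median changes of -0.21 and -0.15. In DT against DMSO on that scale the counts were 6 of 50 and 0 of 23, whereas as deposited they were 27 of 50 (54.0%) and 13 of 23 (56.5%). In DTE against DMSO they were 17 of 50 (34.0%) and 6 of 23 (26.1%). Of the 42 members with a bacterial counterpart 17 (40.5%) were called lower in DTE against DMSO, and of the 31 without, 6 (19.4%), whereas as deposited these were 31 (73.8%) and 22 (71.0%). After quantile normalization, 8.45% of all genes were called lower in E, 7.86% in DT and 14.2% in DTE against DMSO. As deposited, the shares of all genes were 24.1% in DT and 22.5% in DTE. No difference between these subgroups was tested.

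Other members were followed for their roles. MRPS12, at the decoding centre, changed by -0.61 in DTE against DMSO (limma adjusted p = 0.000879, or -0.36 with adjusted p = 0.0484 after quantile normalization), from arrays at 6.22, 6.24 and 6.01 in DTE and 6.66, 6.84 and 6.79 in DMSO that did not overlap. Its quantile-normalized call held in 3 of 12 fits with 1 array left out (-0.44 to -0.24). MRPL45, which helps to hold the ribosome at the inner membrane, changed by -0.57 there (limma adjusted p = 0.00121), but not on the quantile-normalized scale (-0.29, adjusted p = 0.0664). MRPL58, the peptidyl-tRNA hydrolase of stalled ribosomes, changed by -0.51 (limma adjusted p = 0.00244) as deposited and -0.23 (adjusted p = 0.159) after quantile normalization. MRPS5, a small subunit protein with a bacterial counterpart, was not called in DTE against DMSO (-0.27, limma adjusted p = 0.106, and 0.01 after quantile normalization). Against DMSO, 5 further members of this kind were called lower as deposited and not after quantile normalization. MRPS34, a small subunit protein without a bacterial counterpart, changed by -0.64 in DTE against DMSO (limma adjusted p = 0.000609), and by -0.34 (adjusted p = 0.0509) after quantile normalization. MRPS18A and MRPS18B changed by -0.62 and -0.56 there as deposited, and MRPS22 by -0.47, a call that held in 9 of 12 fits with 1 array left out. MRPS18A and MRPS18B descend from the bacterial S18 family but were counted above among the members without a bacterial counterpart. MRPL57 changed by -0.33 in DT as deposited (limma adjusted p = 0.0437) and 0.05 after quantile normalization, and its deposited call held in 5 of 12 fits with 1 array left out (-0.36 to -0.27). MRPL41, a large subunit protein found only in mitochondria, was not called in any comparison on the deposited or the quantile-normalized scale.

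MRPL45 has an annotated pseudogene, as does MRPL42, and whether their probe sets also detect these copies was not tested.

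Other genes of the pathway, from lists chosen by function, were measured beside the members. Among 22 assembly and rRNA modification factors, 12 were called lower in DTE against DMSO as deposited and 8 after quantile normalization (36.4%, with 1 higher), against 31.5% of the ribosomal members. Of all genes, 22.5% were called lower in this comparison as deposited and 14.2% after quantile normalization, with 14.2% higher on the latter scale. MRM1, an rRNA methyltransferase, changed by -1.01 there (limma adjusted p = 0.00025, -0.81 after quantile normalization), and RCC1L, a factor of ribosome assembly, by -0.77 (limma adjusted p = 0.000141, -0.51). FASTKD2, which is needed for the large subunit, changed by -0.48 in E (limma adjusted p = 0.0273) and -0.79 in DTE against DMSO (limma adjusted p = 0.000351). Of 10 translation factors, TACO1, an activator of the translation of cytochrome c oxidase subunit I, changed by -0.51 in E (limma adjusted p = 0.00412) and by -0.51 in DTE against DT (limma adjusted p = 0.00312), and MTRF1L, a release factor, by -0.81 in DT (limma adjusted p = 0.000151).

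DAP3, a small subunit protein whose name lies outside the MRP symbols, had 7.81, 7.79 and 8.06 log2 units in DTE, 7.30, 7.49 and 7.28 in DT, 8.17, 8.37 and 8.31 in E, and 7.95, 7.95 and 7.98 in DMSO. The DT arrays were the lowest and the E arrays the highest, with no overlap between DTE and DT. Some members, among them MRPS9, MRPS17 and MRPS31, also had their lowest mean in DT and their highest in E as deposited. The change of DAP3 was 0.53 in DTE against DT (limma adjusted p = 0.00343), called on all 3 scales. Among 5 measured regulators of mitochondrial gene expression, HCFC1, a transcription co-regulator, had 8.53, 8.55 and 8.32 log2 units in DTE, 9.13, 9.35 and 9.26 in DT, 8.97, 8.84 and 8.99 in E, and 9.75, 9.87 and 9.68 in DMSO. Each drug group lay below DMSO, DTE lowest, and the change was -0.83 in E (limma adjusted p = 6.42e-05) and -1.30 in DTE against DMSO (limma adjusted p = 2.08e-07). MYC and ESRRA moved otherwise, with a higher mean in E than in DMSO. MYC averaged 5.43 log2 units in DTE, 4.99 in DT, 6.78 in E and 6.66 in DMSO. In the same order, NRF1 averaged 6.03, 6.22, 6.27 and 6.61 and ESRRA 4.84, 5.08, 5.49 and 5.28. For NRF1, as for HCFC1, each drug group lay below DMSO and DTE had the lowest mean. As deposited, MYC and YY1 were called lower in DT and in DTE against DMSO, and both also in DTE against E. POLRMT, the mitochondrial RNA polymerase, changed by -0.95 in DTE against E (limma adjusted p = 0.000441, -0.63 after quantile normalization).

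The cytosolic ribosomal protein genes, 49 of them, are the counterparts of the members in the cytosol. After quantile normalization they were called lower at 8 of 49 in DT against DMSO (16.3%), 8 in E against DMSO (16.3%) and 2 in DTE against DT (4.08%), where the mitochondrial members stood at 8.22%, 20.5% and 24.7%. Of 18 nuclear genes for respiratory chain and ATP synthase subunits, 1 was lower in DT (5.56%), 1 in E (5.56%) and 4 in DTE against DT (22.2%). After quantile normalization, 7.86% of all genes were called lower in DT against DMSO, 8.45% in E against DMSO and 12% in DTE against DT. Among the 7290 brighter genes, fitted alone, these shares were 16.9%, 19.3% and 24.2%. The shares of the gene lists above came from the fit of all genes and are not matched to these. These shares are descriptions and their differences were not tested.

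**Figure D5:**
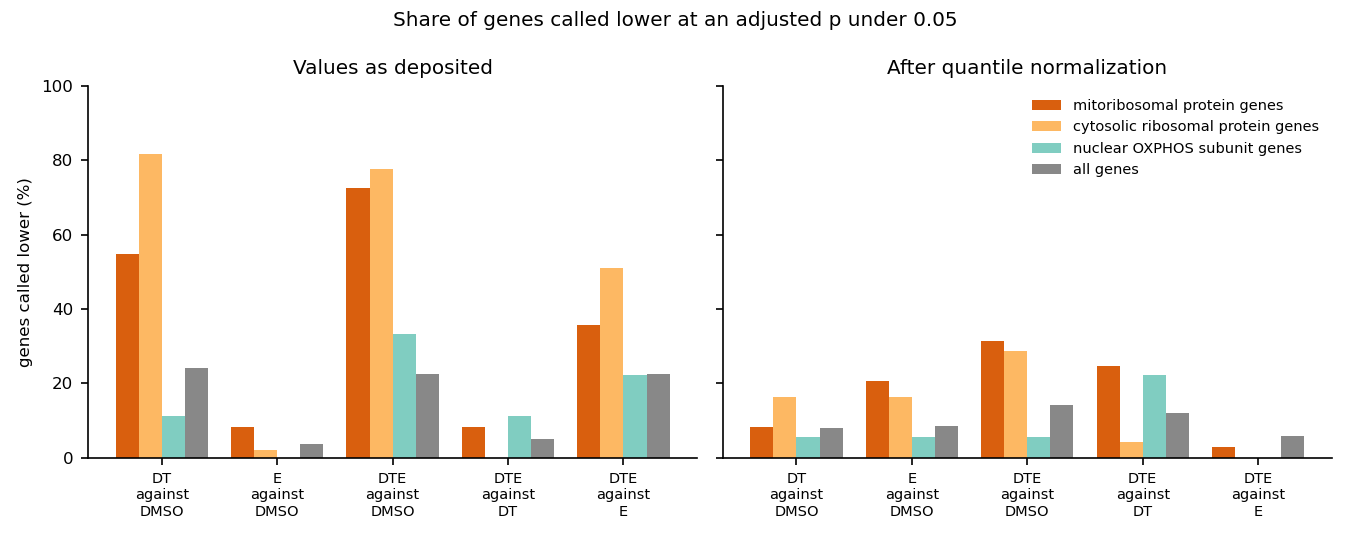
Share of genes called lower (adjusted p under 0.05 by limma) in 5 comparisons, as deposited (left) and after quantile normalization (right), for the 73 mitoribosomal, 49 cytosolic ribosomal and 18 OXPHOS subunit genes and for all 14580 genes. Mitoribosomal genes stand at 54.8% in DT against DMSO on the left and 8.22% on the right, beside 24.1% and 7.86% for all genes, and in E against DMSO and DTE against DT on the right they stand above all genes, at 20.5% against 8.45% and 24.7% against 12%. Among the 7290 brighter genes, fitted alone and not drawn, 19.3% and 24.2% were called lower in E against DMSO and DTE against DT after quantile normalization. Those shares come from a separate fit and are not matched to the drawn ones.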

How the data were processed

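Each probe set came with 1 linear intensity for each array, as deposited, and the submitters' processing notes name RMA and the Transcriptome Analysis Console, without versions. Which genome build the probe sets follow was not given in the sources used here. Of 29396 probe sets, 14748 carried 1 gene symbol, updated through the NCBI gene identifier, and 14648 carried none. The brightest probe set per gene was used (14580 genes), with no filter on dim genes. The number of arrays limits the precision.

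Intensities were converted to log2 and group means fitted over all 12 arrays with limma 3.58.1 in R 4.3.3 (8 residual degrees of freedom, eBayes defaults). P-values were adjusted by Benjamini-Hochberg over all genes within a comparison. On simulated data with 14580 genes for DT against DMSO, of which 200 were changed, 24% of log2 changes of 0.5 and 92% of log2 changes of 1 were recovered. Unchanged genes gave 8 false calls. In the data 27.3% of genes were called in that comparison as deposited, so these shares do not measure recovery in the data. Correlations of deviations between same-numbered arrays were weak, from -0.0966 to 0.1724. As deposited, replicate 2 had the highest array median of its group, at 4.69 in DTE, 4.60 in DT, 4.90 in E and 4.80 in DMSO. The labels do not say whether same-numbered arrays shared a day or batch, and the main fit held no replicate block. Named members were the 4 largest called rises and falls per comparison with non-overlapping groups, those of lowest and highest level, and members chosen for their roles. MRPS14, MRPL9, MRPL15, MRPL36, MRPL50 and members listed beside a count fell outside that rule and were named after their values were seen. The members, lists and motifs were chosen with earlier results of these data known. Promoter windows came from RefSeq (GRCh38.p14), and 65 of 73 members matched. Genes of the mitochondrial genome were not analysed here.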

Additional observations from a re-analysis of the deposited data

How the results depend on the processing

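The scale mattered most. With quantile normalization, the members called lower numbered 6 in DT, 15 in E and 23 in DTE against DMSO, 18 in DTE against DT and 2 in DTE against E, and those called higher 2, 0, 1, 1 and 1. With median centring, 16 were called lower in DT, 32 in E, 26 in DTE against DT and 3 in DTE against E, and 0 were higher in DTE against DT. Of all genes, 12%, 16.3%, 15.4% and 6.91% were called lower in these comparisons, and 9.36% higher in DTE against DT. Called on all 3 scales, a criterion added after seeing the data, were 6 in DT, 23 in DTE against DMSO and 2 in DTE against E, with 0 higher in DTE against DT. For all genes these shares were 7.43%, 13.6% and 5.53%, with 9.36% higher in DTE against DT. With dimmer genes left out, 10 were lower in E and 4 higher in DTE against DT, where 8.66% and 22.5% of the 7290 brighter genes were. Dimmer genes left out after quantile normalization, also added, gave 23 lower in E, 2 higher in DTE against DMSO, 1 lower in DTE against E and 1 higher for the departure from additivity. Of the 7290 brighter genes, 19.3%, 22.3%, 11.6% and 3.44% were called in these ways. The cause was not tested.

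Leaving out 1 array at a time gave ranges, as deposited, of 28 to 42 lower in DT, 2 to 7 in E, 39 to 54 in DTE against DMSO, 1 to 7 lower and 0 to 3 higher in DTE against DT, and 12 to 27 in DTE against E. After quantile normalization they were 3 to 8 lower and 2 to 3 higher in DT, 7 to 16 lower in E, 7 to 25 lower and 1 to 2 higher in DTE against DMSO, 8 to 20 lower and 0 to 2 higher in DTE against DT, and 1 to 3 lower in DTE against E. With the replicate number as a block, 42 were lower in DT, 7 in E, 53 in DTE against DMSO, 6 in DTE against DT and 28 in DTE against E, so the block moved no count by over 1.5 times. Of the 82 pairs of a named gene and a comparison tested under each alternative, 1363 values stayed on their side of the threshold, called or not, 144 lost a call and 38 gained one. Another 3 changed sign with a call on either scale, where under quantile normalization MRPL57 stood at 0.05, MRPS14 at 0.35 and MRPS34 at 0.01 in DT against DMSO.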
